A study of Mus musculus with 12 samples.

Results

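Ribosomes are assembled in the nucleolus, where RNA polymerase I transcribes the ribosomal RNA precursor. Small nucleolar ribonucleoproteins (snoRNPs) of the box H/ACA and box C/D classes modify that precursor, and the small subunit processome and the large subunit assembly factors cut, fold and load it with ribosomal proteins. These genes are transcribed in every dividing or growing cell, and MYC family factors are textbook activators of them through E-box elements.

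The data concern 35 nucleolar ribosome biogenesis genes among 23238 gene symbols. They were measured in cells sorted from mouse lung as alveolar type II (ATII) cells, the surfactant-producing epithelial cells. The genes were chosen by function and name, to follow their counts per 1000000 counts of the library (CPM) over all groups with and without the library labelled BLM 3, and with earlier results of these data already known. Their values, and their calls in fits over all genes, are therefore given as a description, without p-values for these genes. All 35 passed the filter on low counts, which left 13054 genes in the fit.

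Cells positive for CD74 and EpCAM were sorted from lungs of 3 mice per group, 12 libraries in all, and only the 3′ ends of polyadenylated transcripts were sequenced. Con mice carried the floxed p300 (Ep300) alleles (the study's cell isolation methods name C57BL/6 instead) and received PBS into the trachea, and BLM mice were of the same genotype and received 4 mg/kg bleomycin, a DNA-damaging drug that causes lung fibrosis. KO and KOBLM mice had lost exon 9 of p300 through a tamoxifen-induced Cre driven by the surfactant protein C promoter, and received PBS or the same dose of bleomycin. The labels list 10 mg/kg tamoxifen at 8 weeks of age under every library, the control libraries included. The study's qRT-PCR check of isolated ATII cells names vehicle or tamoxifen instead, so whether the controls received tamoxifen is not settled. If they did not, genotype and tamoxifen cannot be told apart. Ep300 itself ranged from 51.0 to 143 CPM in Con, from 42.6 to 119 in BLM, from 103 to 154 in KO and from 54.2 to 169 in KOBLM, but a 3′-end count lies outside the deleted exon and so does not check the genotype.

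Library totals ranged from 7005005 to 11153154 counts. The library labelled BLM 3 stood apart from the other 11 before any comparison was made. It had counts in 6847 genes against 8790 to 13838 in the others. Con 3, KO 3 and KOBLM 2 came next, with counts in 10246, 8790 and 9018 genes, against 11139 to 13838 in the remaining libraries. Of the 35 genes, 3, 5 and 2 were at 0 in them. The part of this sparseness in the low values of these libraries was not tested. Of the 20 pluripotency markers, 15 were higher in BLM 3 than in each of the other 11 libraries. Nanog was at 199.8 CPM there against at most 2.14 and Sox2 at 289 against at most 5.28, while Zfp42, Esrrb, Fgf4 and Trim71 were at 0. Of the 17 macrophage markers, 12 were below every other library, and Adgre1, Csf1r and Marco were at 0. The sorted population held little surfactant message in any library, since Sftpc ranged from 0.554 to 612 CPM, whereas macrophage markers summed to between 11632 and 44836 CPM outside BLM 3. In sorted bulk RNA, fewer cells of a type and less RNA per cell cannot be told apart. The p300 deletion was directed at ATII cells, so any other cells in these libraries kept p300 by design. Results that rest on BLM 3 are given with and without it, except those of the alternative fits, which were not repeated without BLM 3.

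The E-box CACGTG, which reads the same on both strands, was searched for in the RefSeq promoters (GRCm38.p6, 250 bases before to 50 bases after the gene's start) because the MYC family member Mycn had counts in BLM 3 alone. A promoter entry was matched for 30 of the 35 genes, and 4 of these 30 (13.3%) held the motif. The 4 windows are shown on the plus strand, which is each gene's own strand, with the E-box in capitals.
Imp4: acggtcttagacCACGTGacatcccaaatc
Nop2: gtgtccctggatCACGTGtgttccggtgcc
Pes1: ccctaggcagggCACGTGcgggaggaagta
Wdr43: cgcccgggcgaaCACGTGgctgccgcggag

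The Imp4 window lies at chr1:34439696-34439725 with its motif starting 121 bases upstream of the RefSeq start, and the Nop2 window at chr6:125131811-125131840 with its motif starting 60 bases upstream. The Pes1 window, chr11:3963965-3963994, and the Wdr43 window, chr17:71616220-71616249, hold the motif 2 and 17 bases downstream of the start. The share among these genes was close to that of all tested genes, 11.5% of the 9862 with a promoter entry. It was 17.5% of the 97 other ribosome biogenesis genes with an entry, and 8.09% of all 27025 genes with one. A gene with several entries was counted once, if any of them held the motif. For 26 of the 32 entries of the nucleolar genes, bases just after the start were found in a transcript of the gene. The ETS motif CCGGAAG, searched on both strands and not overlapping the E-box letters, was in the promoters of 6 of the 30 genes (20%). These were Gar1, Ebna1bp2, Nop2, Nhp2, Polr1c and Nolc1. The share was 19.5% of the tested genes and 49.5% of the other ribosome biogenesis genes. These matches are letters in a window and say nothing of binding.

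Summed over the 35 genes, the level was 3105, 2848 and 2232 CPM in Con, 2690, 2872 and 13701 in BLM, 2632, 2245 and 2915 in KO, and 3072, 2180 and 2718 in KOBLM. Con, KO and KOBLM overlapped throughout, and BLM 1 and BLM 2 lay inside the Con range. The sum in BLM 3 was 5.04 times the median of the other 11 libraries. The group means were 2728 ± 449 CPM in Con, 6421 ± 6305 in BLM, 2597 ± 337 in KO and 2657 ± 449 in KOBLM (SD, n = 3), and the mean of BLM 1 and BLM 2 was 2781. Rn45s, the ribosomal RNA precursor, took 2.04% to 21.6% of the counts of a library, and with its counts left out of the totals the ratio was 5.59.

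**Figure D1:**
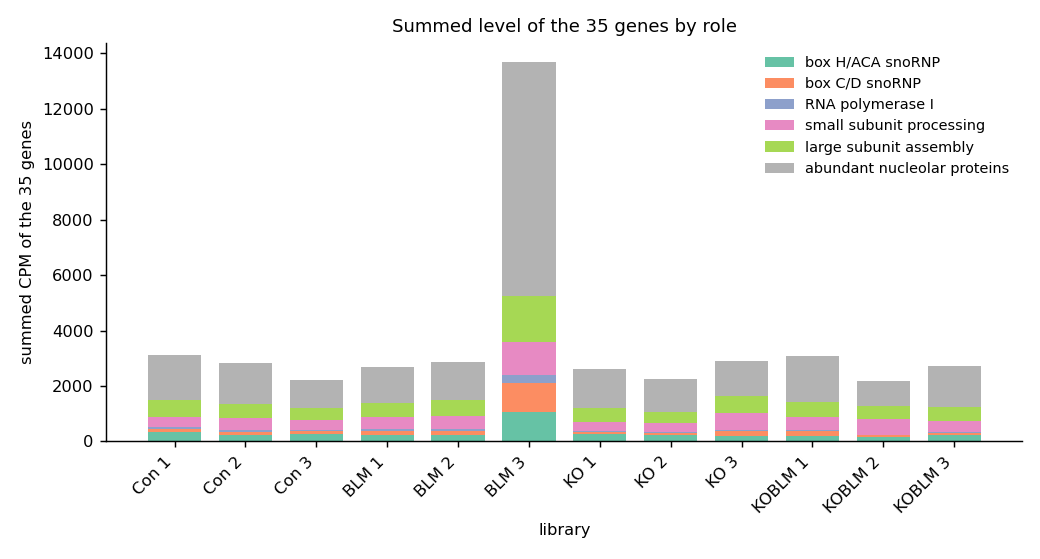
Summed CPM of the 35 genes (vertical axis) in each of the 12 libraries (bars), split by role (colours). BLM 3 reaches 13701 CPM and the other 11 libraries stay between 2180 and 3105, with the abundant nucleolar proteins as the tallest part of each bar.

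BLM 3 exceeded each of the other 11 libraries for 23 of the 35 genes, and was below each of them for 4 (Bop1, Nop14, Rrp1 and Wdr75). Over all tested genes the shares were 19.4% above and 25.2% below. The median ratio of BLM 3 to the median of the other libraries was 4.72 for the 35 genes, 1.99 for 117 other ribosome biogenesis genes and 0.0300 for all tested genes, of which 50.9% were at 0 in BLM 3. Among genes with a count in BLM 3, the median ratio was 4.74 for 33 of the 35, 3.03 for 88 of the 117 and 1.59 for 6408 tested genes. Not all 35 genes were high there. Wdr75 and Bop1 had no count in BLM 3, which allows up to 0.269 CPM (3 counts), Wdr12 was at that same 0.269 CPM, Nop14 at 1.43 and Rrp1 at 9.68.

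Proliferation markers were also high in BLM 3, where 10 of 15 were above each other library. Their sum was 3662 CPM there against 297 to 800 elsewhere. Outside BLM 3 the proliferation sums did not follow those of the nucleolar genes. They were 472, 307 and 297 CPM in KOBLM, below all Con (697 to 772) and all KO libraries (557 to 800). The other BLM libraries, at 413 and 666 CPM, were also below all Con libraries. The sums of the nucleolar genes overlapped among these groups. The pluripotency markers summed to 3614 CPM in BLM 3 and to between 475 and 877 elsewhere, most of which was Klf4. Klf4 itself was lowest in BLM 3, at 186 CPM against 449 to 863. Their sums ranged from 615 to 877 CPM in Con, from 475 to 3614 in BLM, from 496 to 760 in KO and from 580 to 812 in KOBLM. The macrophage markers summed to 1307 CPM in BLM 3, and the 13 ATII markers to 1612, against 643 to 3645 in the other libraries. The ATII markers split in BLM 3, with Etv5 at 397 CPM against at most 39.2 elsewhere and Epcam at 329 against at most 201, while Sftpd, Abca3, Lamp3, Nkx2-1 and Lpcat1 were at 0. The part of another cell type in the BLM 3 values was not tested.

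Mycn, a MYC family transcription factor, had 116.7 CPM in BLM 3 and no count in the other 11 libraries, where 3 counts would be at most 0.428 CPM. Myc was at 62.3, 25.8 and 32.7 CPM in Con, 3.43, 16.8 and 26.4 in BLM, 50.9, 1.79 and 196 in KO and 17.7, 0 and 4.88 in KOBLM. Max, the partner of both, was at 94.2, 118 and 102 CPM in Con, 208, 145 and 56.6 in BLM, 102, 75.1 and 157 in KO and 98.4, 106 and 90.1 in KOBLM, so that its lowest value was in BLM 3. The 10 genes of the MYC network list summed to 414 CPM in BLM 3, 0.925 times the median of the other libraries. Mycl (33.4 CPM against at most 5.41) and Mxd3 (179.9 against at most 69.0) were also highest there, and Mxd1, Mxi1, Mnt and Mlx were at 0.

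**Figure D2:**
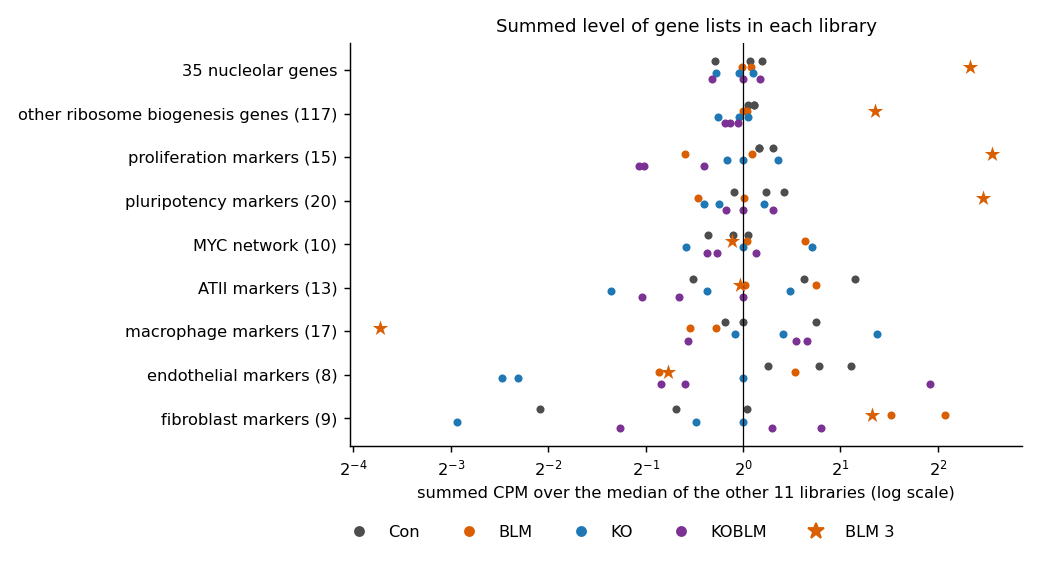
Summed CPM of each gene list in each library divided by the median of the 11 libraries other than BLM 3 (horizontal axis, log scale), with points coloured by group and BLM 3 as a star; the number of genes stands behind each name and the 8 lymphocyte markers, at 0 in BLM 3, are left out. The 35 nucleolar genes, the other ribosome biogenesis genes and the proliferation and pluripotency markers lie to the right in BLM 3, and the macrophage markers to the left.

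Among the box H/ACA genes, which guide and catalyse pseudouridylation of ribosomal RNA, the sum was 174 to 330 CPM outside BLM 3 and 1053 in it. Dkc1 (chrX:75095854-75109777, mm10) encodes dyskerin, the pseudouridine synthase. Dkc1 was at 44.8, 19.4 and 24.9 CPM in Con, 38.5, 39.8 and 450.5 in BLM, 18.9, 18.8 and 49.8 in KO and 34.3, 21.4 and 32.1 in KOBLM. BLM 1 and BLM 2 lay inside the Con range and BLM 3 was 9.05 times the highest other library. Nop10, a small core protein of the same particle and the most abundant of the class, was at 161.4, 115 and 156 CPM in Con, 92.2, 77.2 and 161.9 in BLM, 138, 111 and 85.2 in KO and 126, 121 and 83.7 in KOBLM. Its BLM 3 value was level with the highest Con library, unlike that of Dkc1. The remaining core proteins of the particle were also high in BLM 3, Nhp2 at 191 CPM against 30.3 to 78.1 and Gar1 at 250.1 against 1.35 to 65.9.

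The box C/D genes encode the particle that methylates ribosomal RNA, and their sum was 56.5 to 176 CPM outside BLM 3 and 1056 in it, the largest ratio of the 6 roles (8.66). Fbl (chr7:28169710-28179269) encodes fibrillarin, the methyltransferase, and was at 11.5, 26.6 and 14.7 CPM in Con, 52.8, 60.7 and 239.6 in BLM, 20.3, 10.4 and 52.3 in KO and 16.9, 26.5 and 12.5 in KOBLM. All 3 BLM libraries exceeded the Con and KOBLM libraries, and KO 3 nearly reached BLM 1. Nop58, a scaffold protein of the particle, was at 67.9, 78.6 and 70.5 CPM in Con, 65.5, 65.8 and 434 in BLM, 60.0, 32.7 and 105 in KO and 88.6, 13.4 and 54.4 in KOBLM. Nop56, the paired scaffold, was at 42.5, 32.1 and 30.1 CPM in Con, 23.0, 49.7 and 383 in BLM, 20.9, 32.3 and 6.29 in KO and 54.3, 16.7 and 20.1 in KOBLM. BLM 1 and BLM 2 lay below all Con libraries for Nop58 and on either side of them for Nop56.

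RNA polymerase I subunits were the least abundant role, summing to 3.08 to 77.9 CPM outside BLM 3 and 279 in it. Polr1a, the largest catalytic subunit, was at 18.6, 41.8 and 0.660 CPM in Con, 48.0, 55.7 and 87.7 in BLM, 18.7, 7.14 and 0 in KO and 29.3, 2.79 and 5.32 in KOBLM. Every BLM library was above every library of the other groups, by as little as 48.0 against 41.8. Polr1c, shared with RNA polymerase III, was at 33.4, 24.7 and 16.8 CPM in Con, 19.8, 14.5 and 120.1 in BLM, 8.52, 19.9 and 34.1 in KO and 3.21, 0.289 and 24.9 in KOBLM, and there BLM 1 lay inside the Con range and BLM 2 below it. Polr1b was at 71.0 CPM in BLM 3 and at 0 in 4 libraries, with the highest other value 13.4.

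The 9 genes of small subunit processing summed to 310 to 618 CPM outside BLM 3 and 1215 in it, the lowest ratio of the roles (2.96). Wdr43, a member of the complex that starts assembly on the precursor, was at 114, 146 and 117 CPM in Con, 101, 98.9 and 718 in BLM, 82.0, 94.8 and 79.4 in KO and 139, 97.1 and 94.3 in KOBLM. It was the steadiest of the 35 genes outside BLM 3 (coefficient of variation 20.2%). Bysl, a late small subunit factor, was at 76.1, 101 and 88.4 CPM in Con, 176, 135 and 290.1 in BLM, 74.0, 49.0 and 333 in KO and 158, 119 and 158 in KOBLM. All BLM values were above Con, but KO 3 was higher than BLM 3.

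Rrp12, a factor of small subunit export, was at 3.21, 0.535 and 0 CPM in Con, 10.1, 21.0 and 47.2 in BLM, 5.88, 17.7 and 0.278 in KO and 28.2, 67.7 and 5.21 in KOBLM. All BLM libraries were above all Con libraries, and KOBLM 2 was above BLM 3. Of the other small subunit genes, Rrp9, a protein of the U3 particle, was at 21.2 CPM in BLM 3 against at most 20.6. Imp3 and Imp4, which join U3 to the precursor, were at 52.4 and 61.7 CPM in BLM 3, and Nat10, an RNA cytidine acetyltransferase, at 22.9, each below the highest other library. Nop14 and Wdr75 were lowest in BLM 3, as given above, against ranges of 3.52 to 105 and 2.07 to 83.8 CPM.

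The 12 large subunit assembly genes summed to 413 to 623 CPM outside BLM 3 and 1653 in it. Ftsj3, a ribosomal RNA methyltransferase, was at 126, 89.0 and 30.1 CPM in Con, 90.5, 76.6 and 457 in BLM, 66.6, 72.0 and 9.62 in KO and 76.7, 11.8 and 105 in KOBLM. Ddx18, an RNA helicase, was at 84.3, 63.0 and 46.7 CPM in Con, 51.7, 82.1 and 109.8 in BLM, 83.7, 38.9 and 233 in KO and 45.1, 79.6 and 70.6 in KOBLM. The high library was BLM 3 for Ftsj3 and KO 3 for Ddx18. Gnl3, which encodes nucleostemin, was at 51.5, 55.1 and 36.8 CPM in Con, 120.2, 108 and 288 in BLM, 54.1, 49.99 and 0 in KO and 70.1, 69.7 and 54.0 in KOBLM. For Gnl3 the 3 BLM libraries were above all 9 others.

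Mrto4, a placeholder for the ribosomal stalk proteins, was at 23.8, 24.3 and 0 CPM in Con, 27.8, 24.8 and 166 in BLM, 20.5, 17.9 and 85.8 in KO and 33.3, 52.9 and 19.7 in KOBLM. Rrs1, which acts in loading of the 5S particle, was at 30.5, 21.8 and 16.96 CPM in Con, 33.3, 32.1 and 139.9 in BLM, 23.8, 22.7 and 14.7 in KO and 62.1, 7.03 and 26.7 in KOBLM. In both genes BLM 2 cleared the highest Con library by less than 2 CPM. Bop1 went the other way, at 29.4, 22.5 and 23.6 CPM in Con, 7.85, 20.4 and 0 in BLM, 32.0, 12.9 and 51.0 in KO and 38.8, 94.8 and 23.3 in KOBLM.

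Pes1, Bop1 and Wdr12 encode the 3 proteins of the PeBoW complex, and they did not move as a unit. Pes1 was at 101 CPM in BLM 3 within a range of 31.5 to 118, whereas Bop1 and Wdr12 were at 0 and 0.269 CPM there, and Wdr12 ranged from 0 to 24.6 elsewhere. Nop2, a ribosomal RNA methyltransferase, was at 102 CPM in BLM 3 against 0 to 61.6, Nop16 at 140.3 against 0.0963 to 36.3, and Ebna1bp2 at 139.6 against 12.5 to 89.8. Rrp1 was at 9.68 CPM against 32.0 to 90.8.

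The abundant nucleolar proteins were the largest role in the sum, at 896 to 1636 CPM outside BLM 3 and 8445 in it. Ncl (chr1:86344719-86359400) encodes nucleolin, a major RNA-binding protein of the nucleolus, and was at 953, 898 and 353 CPM in Con, 887, 877 and 4008 in BLM, 794, 815 and 515 in KO and 1030, 410.3 and 846 in KOBLM. Npm1 (chr11:33152287-33163206) encodes nucleophosmin, a histone and ribosome chaperone, and was at 364, 271 and 364 CPM in Con, 169, 223 and 3527 in BLM, 311, 179 and 559.5 in KO and 228, 312 and 328 in KOBLM. For Npm1, BLM 1 and BLM 2 were below all Con libraries, so that the BLM mean lay above Con through BLM 3 alone. Ddx21, a helicase that couples polymerase I to processing, was at 657 CPM in BLM 3 against 79.7 to 307, and Nolc1, a snoRNP chaperone, at 253 against 4.94 to 108.

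**Figure D3:**
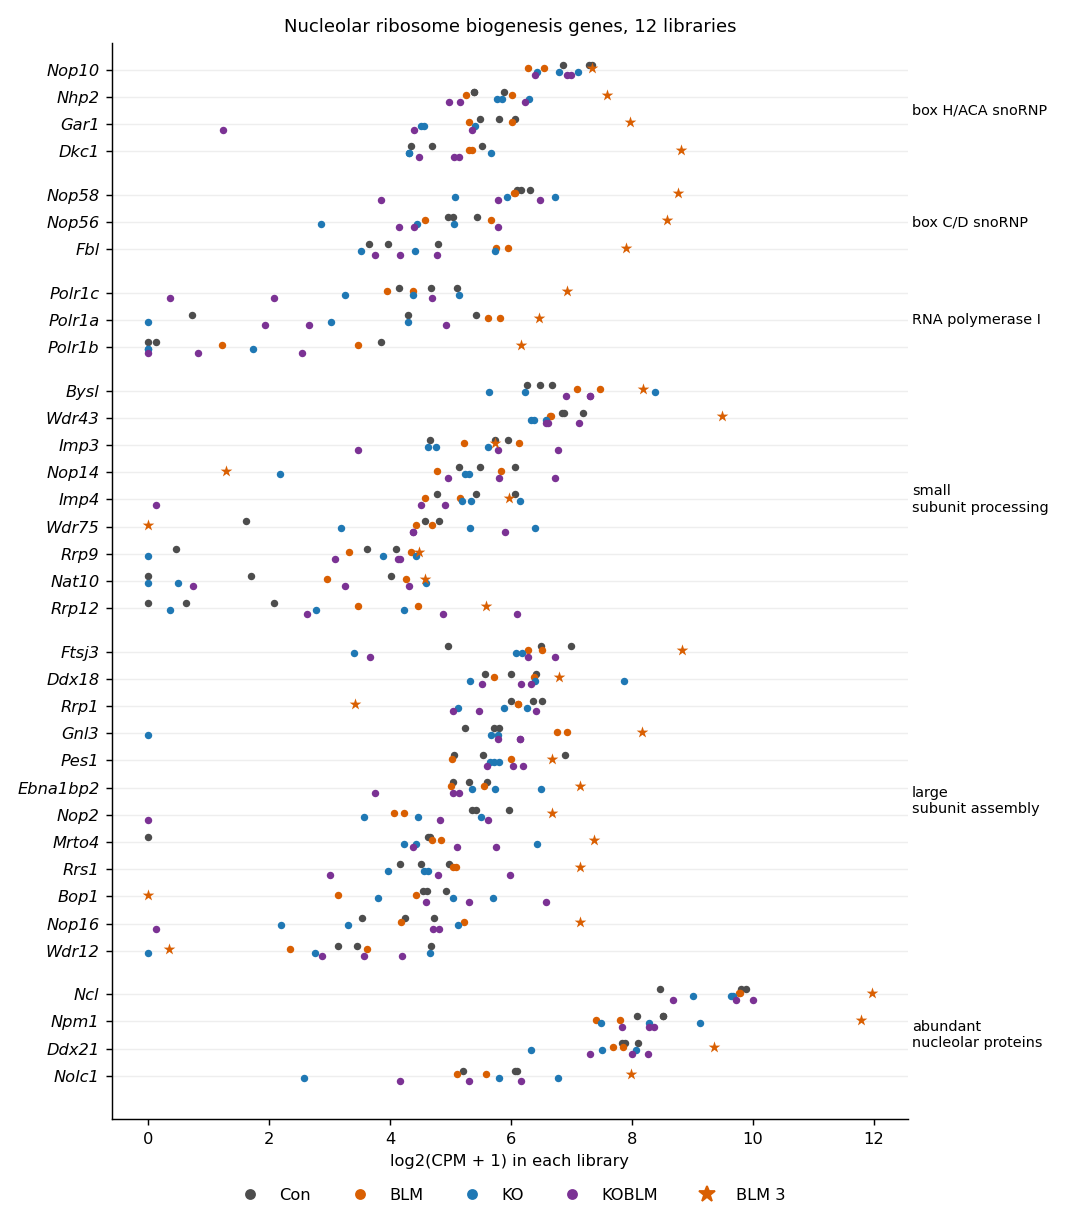
Level of each of the 35 genes (rows, grouped by role) as log2(CPM + 1) in each library (points coloured by group, BLM 3 as a star). BLM 3 is the rightmost point for 23 genes and the leftmost for Bop1, Nop14, Rrp1 and Wdr75.

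Outside BLM 3 the genes differed in how steady they were. The coefficient of variation over the 11 libraries, all groups together, was lowest for Wdr43 (20.2%), Nop10 (25.1%), Ddx21 (28.6%) and Ncl (29.9%). It was highest for Polr1b (155%), Rrp12 (137%) and Nat10 (103%). The mean over these libraries was 106, 115, 220 and 762 CPM for the steady genes and 2.98, 14.5 and 8.56 CPM for the variable ones. Polr1b, Rrp12 and Nat10 were at or under 3 counts in 5, 2 and 3 libraries. The part of low counts in this variation was not tested.

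The comparison of BLM with Con asks what bleomycin changed in mice without the p300 deletion. Genes were called at a fold change over 1.5 with an unadjusted p under 0.05 in edgeR's quasi-likelihood fit, the fold and p that the study used, and 3 of the 35 genes were called higher, Dkc1, Fbl and Npm1, while none was called lower. Over all 13054 genes, 2.19% were called higher and 2.08% lower. Their log2 differences were 2.39 (SE 0.94) for Dkc1, 2.61 (SE 0.95) for Fbl and 1.76 (SE 0.82) for Npm1. No gene passed an adjusted p of 0.05 in this fit, whereas DESeq2 called 123 genes at that level, none of them among the 35. At the fold and unadjusted p used here DESeq2 called Fbl, Ncl, Nop56 and Rrp12, and edgeR with only the 2 groups compared called Fbl and Gnl3, so that Dkc1 and Npm1 were not called in either. Without BLM 3 none of the 35 was called by edgeR, against 2.94% of all tested genes higher and 2.51% lower. Leaving out Con 2 or Con 3 left Fbl alone called, Con 1 left Dkc1 with Rrp12, BLM 1 gave 5 genes and BLM 2 gave 4. For these alternatives other than leaving out BLM 3, the share of all tested genes is not given. The differences without BLM 3 were 0.55 (SE 0.84) for Dkc1, 1.82 (SE 0.94) for Fbl and -0.60 (SE 0.41) for Npm1. The direction turned for 6 of the 35 genes without BLM 3 (Npm1, Polr1c, Wdr43, Wdr75, Nolc1 and Ddx21).

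The median log2 difference of the 35 genes, taken relative to the median of all tested genes, was 1.05 in BLM against Con, with 28 genes above that median, and 0.15 without BLM 3, with 21 above it. By role it was 2.02 for box C/D, 1.66 for RNA polymerase I, 1.12 for the abundant proteins, 1.04 for box H/ACA, 0.90 for small subunit processing and 0.62 for large subunit assembly. Without BLM 3 these were 0.18, 0.42, -0.24, 0.10, 0.46 and 0.10 in the same order.

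Of the 35 genes, 7 had all 3 BLM libraries above all Con libraries (Bysl, Fbl, Gnl3, Mrto4, Polr1a, Rrp12 and Rrs1) and Bop1 had them below, against 5.32% and 11.8% of all tested genes. With BLM 1 and BLM 2 alone the same 7 were above and 6 were below (Bop1, Nop10, Nop2, Nop58, Npm1 and Wdr43), against 16.1% and 15.4% of all tested genes. Markers of other cell types separated BLM from Con as well. The 9 fibroblast markers summed to 1149 to 1925 CPM in BLM, 108 to 470 in Con, 59.7 to 458 in KO and 191 to 796 in KOBLM, so that BLM lay above all other groups, as for Gnl3 and Polr1a, although Pdgfra, Pdgfrb, Dcn and Lum were at 0 in BLM 3. The macrophage markers summed to 1307 to 14270 CPM in BLM and 15213 to 29031 in Con. The part of these cells in the values of the 35 genes was not tested.

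The 117 other ribosome biogenesis genes, listed by function, had 1 gene called higher in BLM than in Con and none lower. Of all tested genes, 2.19% were called higher and 2.08% lower. Lyar, a nucleolar regulator of precursor processing, was at 43.7, 25.99 and 69.0 CPM in Con and 48.1, 56.1 and 474 in BLM, and its log2 difference was 1.90 (SE 0.86, adjusted p = 0.995 by edgeR). It was 0.34 (SE 0.72) without BLM 3, when none of the 117 was called, against 2.94% of all tested genes higher and 2.51% lower. The median difference of the 117 from all genes was 0.52, and 0.08 without BLM 3.

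KOBLM against BLM asks what the p300 deletion directed at ATII cells changed after bleomycin, and it shares the BLM libraries with the comparison above. The 3 genes called higher in BLM, Dkc1, Fbl and Npm1, were called lower in KOBLM and none was called higher, against 1.78% of all genes lower and 1.39% higher. The log2 differences were -2.28 (SE 0.94), -2.45 (SE 0.94) and -1.85 (SE 0.83). Without BLM 3 none was called, against 1.58% lower and 1.76% higher, and the differences were -0.45 (SE 0.85), -1.67 (SE 0.94) and 0.52 (SE 0.41). The direction turned for 7 of the 35 genes (Npm1, Wdr43, Nop2, Rrp1, Mrto4, Nolc1 and Ddx21). Leaving out KOBLM 1 also left none called, KOBLM 2 left Fbl alone, KOBLM 3 left Gar1 and Polr1c, and BLM 1 gave 7 genes. DESeq2 called Fbl, Gar1, Nop56 and Nop58, and edgeR with only the 2 groups compared called Fbl alone. Here too the share of all tested genes is given only with all libraries and without BLM 3. The median difference of the 35 genes from all genes was -0.95, with 7 genes above the median, and -0.05 without BLM 3, with 15 above it.

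In KOBLM, 4 of the 35 genes lay below all BLM libraries (Dkc1, Fbl, Gnl3 and Polr1a) and Bop1 lay above them, against 4.98% and 6.04% of all tested genes. Against BLM 1 and BLM 2 alone the same 4 were below and Bop1 and Npm1 above, against 15.4% and 8.05%. Gnl3 thus read 54.0 to 70.1 CPM in KOBLM against 108 and 120.2 in these libraries, with a log2 difference of -1.24 (SE 1.26) in the full fit and -0.86 (SE 1.25) without BLM 3. For Polr1a the differences were -2.21 (SE 1.77) and -2.09 (SE 1.82).

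**Figure D4:**
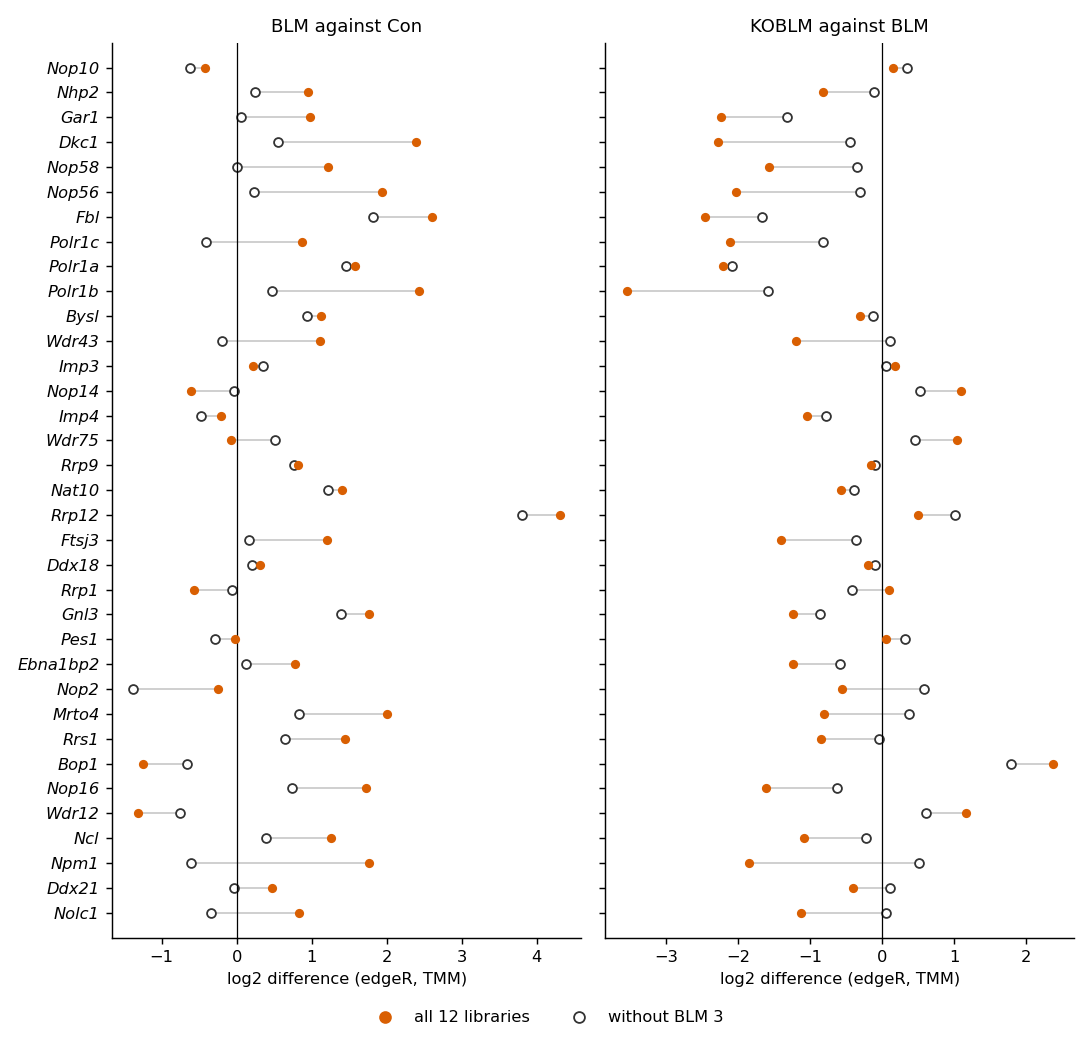
Log2 difference of each of the 35 genes (rows) in BLM against Con (left) and KOBLM against BLM (right), from the fit of all 12 libraries (filled) and without BLM 3 (open). The open points lie nearer to 0 for 29 genes on the left and 30 on the right, and Npm1 moves from 1.76 to -0.60 on the left and from -1.85 to 0.52 on the right.

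Of the 117 other ribosome biogenesis genes, 3 (2.56%) were called lower in KOBLM than in BLM and none higher. Of all tested genes, 1.78% were called lower and 1.39% higher, and nothing is read from the count. Lyar was at 26.1, 27.7 and 30.7 CPM in KOBLM, a log2 difference of -2.49 (SE 0.87, adjusted p = 1 by edgeR). Rsl1d1, a nucleolar protein with a ribosomal L1 domain, was at 116, 151 and 695 CPM in BLM and 72.9, 4.53 and 92.5 in KOBLM (log2 difference -2.22, SE 0.92, adjusted p = 1 by edgeR). Taf1c, a subunit of the polymerase I initiation factor SL1, had no count in any KOBLM library and was at 4.43, 5.01 and 0 CPM in BLM, so no fold is given. Without BLM 3 only Taf1c was called, against 1.58% of all tested genes lower and 1.76% higher. Lyar was then at -0.92 (SE 0.72) and Rsl1d1 at -1.24 (SE 0.82). The median difference of the list was -0.68, and -0.14 without BLM 3.

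KO against Con asks what the p300 deletion directed at ATII cells changed without injury. None of the 35 genes was called by edgeR or by DESeq2, against 0.536% of all genes called higher and 0.904% lower by edgeR. The median difference from all genes was -0.0023, with 17 genes above the median. Gar1 and Wdr43 had all KO libraries below all Con libraries and no gene had them above, against 7.56% and 2.18% of all tested genes. None of the 117 other genes was called, and their median difference was -0.07. Without BLM 3, which is in neither group, Krr1 and Pno1, small subunit factors, were called higher in KO, neither passing an adjusted p of 0.05 by edgeR. The share of all tested genes called in KO against Con without BLM 3 is not given, so these calls are not read as a result.

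KOBLM against KO asks what bleomycin changed in mice with p300 deleted in ATII cells. None of the 35 genes was called by either tool, against 1.16% of all genes higher and 0.529% lower, and the median difference was 0.0022, with 18 genes above the median. Ebna1bp2 and Imp4 had all KOBLM libraries below all KO libraries, against 2.87% of all tested genes, and none had them above, against 3.95%. Ebna1bp2, an assembly factor of the large subunit, was at 40.1, 52.5 and 89.8 CPM in KO and 32.1, 12.5 and 34.1 in KOBLM. Imp4 was at 39.4, 35.6 and 70.3 CPM in KO and 29.0, 0.0963 and 21.8 in KOBLM. Of the other genes, only Taf1c was called, lower in KOBLM (adjusted p = 1 by edgeR), from 12.0, 0 and 0.555 CPM in KO. Without BLM 3, 6 were called, Ddx10, Gltscr2 and Skiv2l2 higher and Emg1, Taf1c and Utp23 lower, none passing an adjusted p of 0.05 by edgeR. The share of all tested genes called in that fit is not given, so this count is not read as a result about these genes.

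The difference between the bleomycin effects of the genotypes was called for Fbl alone among the 35 genes, with a log2 value of -3.10 (SE 1.30), against 1.31% of all tested genes called in that direction. It was -2.31 (SE 1.28), and not called, without BLM 3.

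The counts of 12 of the 35 genes are uncertain, since a run of 50 bases within the last 300 of a transcript also occurs in a transcript of another gene (GENCODE M21). Nop56 and Npm1 share such runs with 6 pseudogenes each, Ddx18 with 3, Mrto4 with 2, and Fbl, Ncl, Wdr75 and Wdr12 with 1 each. Pseudogenes included, Fbl, Mrto4 and Wdr12 share runs with 3 other genes each. Nop58 shares them with 7 other genes and Polr1b with 29, of which 0 and 1 are pseudogenes. The 3′ ends of Bysl and Bop1 overlap those of Ccnd3 and Mroh1 on the opposite strand, and whether strand was used in counting is not given in the sources used here.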

How the data were processed

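Libraries were prepared with a QuantSeq 3′ mRNA kit, and the authors deposited raw counts of reads per gene symbol for each of the 12 libraries. The submitters' processing notes name Bowtie2, edgeR and mm10. Counter, annotation and filters are not given in the sources used here. Here counts were summed over repeated symbols (23282 entries, 23238 symbols) and given as CPM of the library total. Intervals were not computed, and 3 counts in a library equal 0.269 to 0.428 CPM. Groups were taken from the labels. Genes passing edgeR's filterByExpr (minimum count 10, total 15) were fitted with edgeR 4.0.16 (R 4.3.3, limma 3.58.1) as a quasi-likelihood model of 4 groups with TMM factors between 0.835 and 1.26. On 8 residual degrees of freedom the shared dispersion came to 2.08, which means that replicate counts of a gene varied by 1.44 times their mean (SD). The p-values of edgeR come from quasi-likelihood F-tests that set a group difference against the spread between these libraries, BLM 3 included in the full fit. Each SE is the absolute log2 difference divided by the square root of F. Adjusted p-values of edgeR are Benjamini-Hochberg over the genes of each fit, 13054 with all libraries and 14084 without BLM 3. DESeq2 1.42.0 was an alternative, with other scalings, filters, sample sets and each library left out. The 35 genes and all lists were chosen with earlier results of these data known. Per-library values are printed for the 2 most abundant genes of each role, those called in a comparison and those whose BLM libraries do not overlap Con. Other genes named were chosen after their values were seen. Promoters were matched by symbol, and Fbl, Rrp12, Bop1, Rrs1 and Npm1 had no entry.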

Additional observations from a re-analysis of the deposited data

Results flagged for a closer look

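Nifk, a nucleolar protein of large subunit assembly outside the 35 genes, moved in opposite directions with bleomycin in the genotypes. It was at 57.0, 45.6 and 0.471 CPM in Con and 73.8, 72.4 and 281 in BLM, all higher, and at 48.8, 93.9 and 39.9 in KO and 29.7, 0 and 39.5 in KOBLM, all lower. The log2 difference of the bleomycin effects was -3.35 (SE 2.20, adjusted p = 0.9999 by edgeR), and -2.64 (SE 2.13) without BLM 3, so it did not pass the test.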

How the results depend on the processing

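Under an adjusted p of 0.05 in edgeR, 0 of the 35 genes and 0 of the 117 others were called in each of the 4 comparisons. The median differences of the 35 genes kept their direction in BLM against Con (0.15 to 1.55) and KOBLM against BLM (-1.53 to -0.05) under each alternative run and with each library of the comparison left out, the values nearest 0 being those without BLM 3. Those of KO against Con (-0.08 to 0.19) and KOBLM against KO (-0.20 to 0.12) lay on both sides of 0. Where a count moved, the cause was not tested. The share of all tested genes called is given for the full fit. For the fit without BLM 3 it is given only in BLM against Con and KOBLM against BLM. Counts under the other settings below are therefore not read as results about these genes.

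In BLM against Con, 5 of the 35 genes were called with DESeq2 size factors and 5 with no filter, in place of 3, and of the others 3 with DESeq2 size factors, 0 with only the 2 groups compared and 7 with DESeq2, in place of 1. In KOBLM against BLM, 6 of the 35 were called with library size alone, 5 with no filter and 1 with only the 2 groups compared, in place of 3, and of the others 1 with only the 2 groups compared and 9 with DESeq2, in place of 3. Of the others, 2 were called in KO against Con with only the 2 groups compared and 2 with DESeq2, in place of 0, and in KOBLM against KO 0 with no filter, 3 with only the 2 groups compared and 5 with DESeq2, in place of 1. Leaving out Rn45s, chosen after seeing the data, moved the ratio of BLM 3 from 5.04 to 5.59. With each library of the comparison left out in turn, the counts for the 35 genes were 0 to 5 in BLM against Con and 0 to 7 in KOBLM against BLM, and 0 in the comparisons of KO with Con and of KOBLM with KO. For the others they were 0 to 3, 1 to 3, 0 to 2 and 0 to 4 in the order of the comparisons above. Npm1 ranged from -0.60 (without BLM 3) to 2.26 in BLM against Con and from -2.35 to 0.52 (without BLM 3) in KOBLM against BLM, while Dkc1, Fbl, Lyar and Rsl1d1 kept their direction. Genes called for the interaction numbered 368 in all, and 332 to 672 (without KO 1) with a library left out, the value without BLM 3 being 652.

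The replicate numbers are shared between groups. Deviations from the group means correlated at -0.12 to 0.10 between same-numbered libraries and at -0.10 to 0.15 between differently numbered ones. These correlations show no pairing by number but cannot exclude one. With that number as a replicate block, 2 of the 35 genes (Fbl and Rrp12) were called in BLM against Con and 0 in KOBLM against BLM, 0 and 2 of the others in the same comparisons, and 242 genes for the interaction.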

Other observations

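The other ribosome biogenesis genes were described by role in the same libraries. In BLM 3, 51 of the 117 exceeded each other library, 23 were below each of them and 29 had no count. Over all tested genes the shares were 19.4% above, 25.2% below and 50.9% with no count. The 12 genes of the RNA exosome, which trims ribosomal RNA ends, summed to 224 to 519 CPM outside BLM 3 and stood at 3.07 times their median in it. The 40 large subunit genes summed to 1544 to 2206 CPM (ratio 3.06), the 45 small subunit genes to 1815 to 2438 (ratio 2.48), the 12 genes of RNA polymerase I and its factors to 302 to 683 (ratio 1.93) and the 8 snoRNP assembly factors to 74.3 to 185 (ratio 1.52). The 35 genes had ratios of 2.96 to 8.66 by role, and the difference between the lists was not tested.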
